A study of Mus musculus with 6 samples.

Results

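The keratins, claudins and epithelial identity genes described here are 61 protein-coding genes of the 26018 genes in the deposited table. They were chosen by symbol: 30 keratins, 18 claudins (the endothelial claudin Cldn5 was left out) and 13 others, namely Epcam, Cdh1, Spint1, Spint2, Esrp1, Esrp2, Elf3, Foxa2, Ovol1, Ovol2, Grhl1, Grhl2 and Grhl3. Their RNA was measured by bulk sequencing of the uterus of untreated female mice, 6 weeks old and matched for body weight. The conditional knockout group (cKO) held 3 animals labelled Tcf21d/d, where d stands for the deleted allele of Tcf21. The control group held 3 animals labelled Tcf21f/f, homozygous for the floxed allele. Each animal gave 1 library. The sources used here do not name the Cre line, the cells it acts in or the deleted part of Tcf21. The comparison asks which genes depend on TCF21, a transcription factor of mesenchymal cells, while the uterus develops.

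Keratins are the intermediate filament proteins of epithelial cells, and each filament pairs a type I with a type II chain. Simple epithelia, such as the lining and glands of the uterus, are known for KRT8, KRT18, KRT19 and KRT7, while stratified epithelia use KRT5 and KRT14 in their basal layer. Claudins are the membrane proteins that form tight junctions, some of them sealing and others forming ion channels between cells. E-cadherin (Cdh1) and EPCAM hold neighbouring epithelial cells together, SPINT1 and SPINT2 restrain membrane serine proteases, ESRP1 and ESRP2 direct epithelial splicing, and the GRHL, OVOL, ELF3 and FOXA2 factors control epithelial genes.

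The libraries differed in ways that bear on these genes. They held 14584450 to 16579573 reads on genes. Normalised read counts of Tcf21 were 26.0, 0 and 0 in cKO replicates 1 to 3, against 341.4, 151.9 and 144.1 in control replicates 1 to 3. Its log2 fold change, cKO over control, was -6.03 ± 1.25 (SE), at a limma adjusted p of 0.0765. At a threshold of 0.05, limma therefore did not call the targeted gene itself. A list of 18 liver genes summed to 5073.5, 3760.1 and 3121.4 normalised reads in cKO replicates 1 to 3, against 325748.1, 2169.5 and 2835.3 in control replicates 1 to 3, so that control replicate 1 stood far above the rest. In cKO replicate 1, 4784.5 of that sum came from Hp, and 7 of the 18 genes had a read. Alb, the albumin gene, had 0 there, 672.8 in cKO replicate 2 and 602.3 in control replicate 3. Control replicate 2 had reads for all 19 intestinal epithelium genes, with 53.0 for Cdx2 and 192.3 for Vil1, and Cdx2 had no read in any other library. Control replicate 3 held 6247.1 normalised reads of 12 autonomic and enteric neuron genes, against 680.3 to 1375.1 in any other library. The 13 skeletal muscle genes summed to 955677.9 to 1428995.3 normalised reads in cKO and 542723.8 to 877476.5 in control libraries. Of the 12 tested limma called 0, with 10 higher at an unadjusted p under 0.05, where 6.11% of all genes tested were. Of 11 smooth muscle genes, which mark the myometrium, 9 fell and 0 rose in limma. Over all genes tested, 0.889% fell and 0.276% rose. Of 8 neuron genes tested 2 fell, Snap25 and Syt1, and both lost the call without cKO replicate 2 or 3 or control replicate 2 or 3. Of 17 liver genes tested 0 were called, at a median log2 fold change of -4.18. The part these transcripts have in the epithelial values was not tested.

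Summed over the 61 genes, cKO replicates 1 to 3 held 3014.3, 2180.4 and 2245.2 normalised reads, and control replicates 1 to 3 held 12613.2, 5579.3 and 2660.0. The 3 cKO libraries lay close together, control replicates 1 and 2 lay above them, and control replicate 3 lay inside the cKO range. The log2 ratio of the summed levels, cKO over control, was -1.49 with all libraries and -0.73 without control replicate 1. In bulk tissue, fewer epithelial cells and less RNA per cell cannot be told apart. Control replicates 1 and 2 also held the highest sums of the 19 intestinal epithelium genes, at 4434.4 and 3125.8 normalised reads. Control replicate 1 held 325748.1 normalised reads of the 18 liver genes. The part of liver and intestinal transcripts in the summed level of the 61 genes was not tested.

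No member passed the test in either direction. After a filter on low reads, 24 of the 61 genes were tested in a limma fit of all 16314 genes that passed it. At a Benjamini-Hochberg adjusted p under 0.05, limma called 0 of the 24 lower and 0 higher, against 0.889% and 0.276% of all genes tested. At an unadjusted limma p under 0.05, 5 members were on the lower side (Krt19, Spint2, Spint1, Epcam and Esrp1), where 7.6% of all genes tested were, and 2 on the higher side (Cldn19 and Krt80), where 6.11% were. The median log2 fold change of the 24 was -0.95, with 19 below 0, against 0.002 over all genes tested. A gene that passes the filter only through the group where it is high has to differ, so these counts describe the 24 genes and not all 61.

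Other tests of the same libraries gave other counts. DESeq2 called 4 of the 22 members with an adjusted p lower (Krt19, Spint2, Spint1 and Epcam), where 3.83% of all genes were, and 2 higher (Cldn19 and Krt80), where 1.87% were. edgeR called 0 and 0, where 0.668% and 0.0797% of all genes were called, with 7 and 2 members at an unadjusted p under 0.05, where 9.07% and 5.42% of all genes were. The authors' deposited table lists 4 members as lower at an adjusted p under 0.05 (Krt19 at 0.00189, Spint2 at 0.00314, Spint1 at 0.033 and Krt17 at 0.0432), where 2.34% of its genes are, and Cldn19 as higher at 0.0242, where 0.872% are. Without control replicate 3, limma called Krt19, Spint1, Krt8 and Epcam lower, where 1.31% of all genes were, and Cldn19 higher, where 0.313% were.

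**Figure D1:**
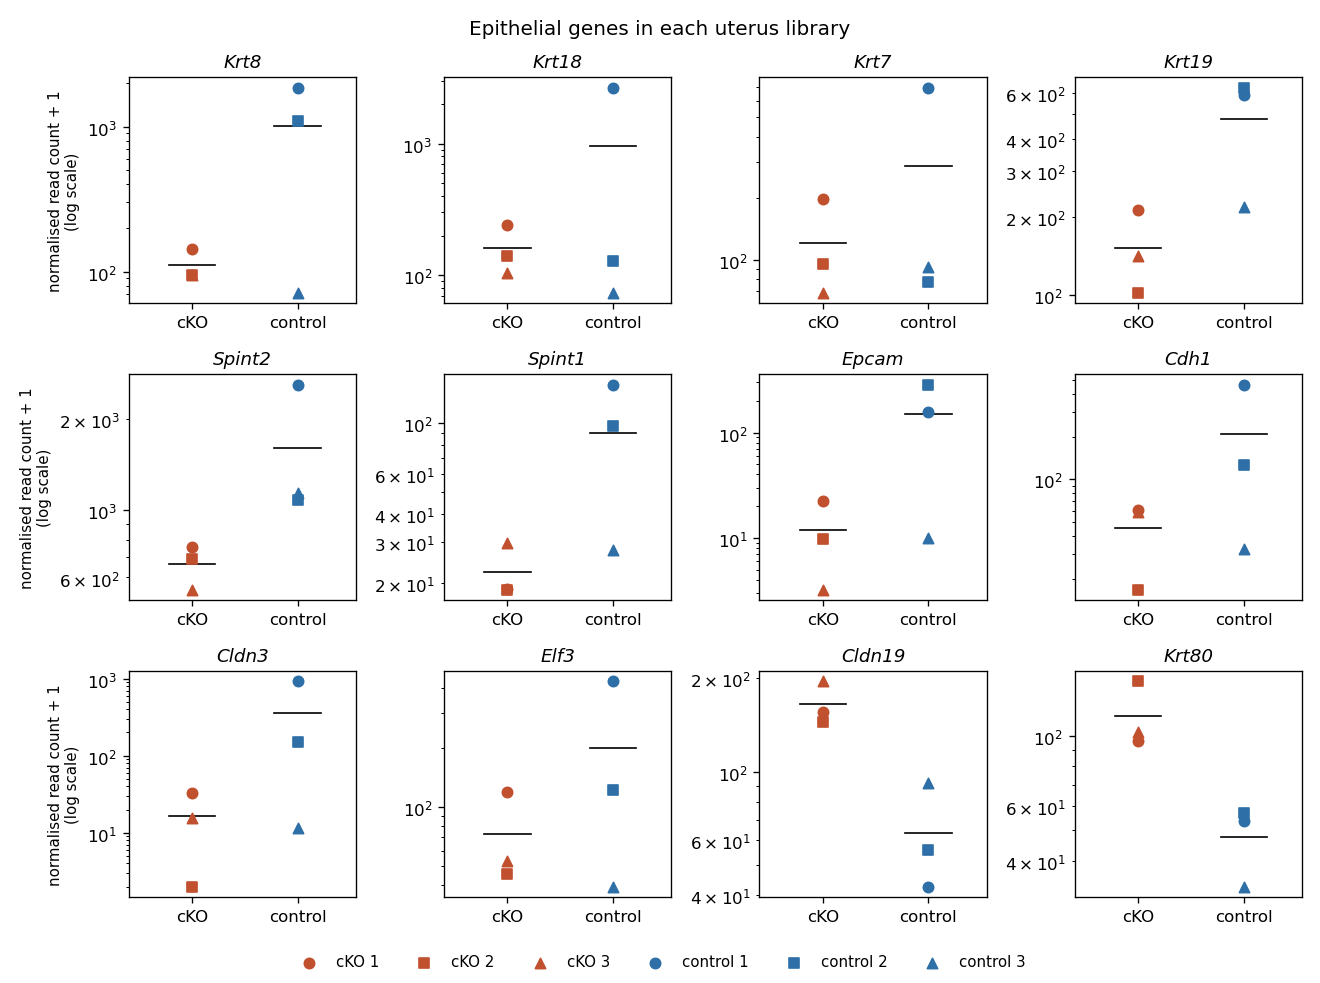
Normalised read counts plus 1 (log scale) of 12 epithelial genes in the 3 cKO (left) and 3 control (right) libraries, with 1 symbol per library and a bar at the group mean. Control replicates 1 and 2 stand above the cKO libraries for Krt8, Epcam, Cldn3 and Spint1 while control replicate 3 lies among or below them, and Cldn19 and Krt80 are higher in all 3 cKO libraries.

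The simple-epithelium keratins varied widely among controls. Krt8, the type II keratin of simple epithelia, had 142.2, 94.6 and 93.9 normalised reads in cKO replicates 1 to 3, against 1849.6, 1090.2 and 70.3 in control replicates 1 to 3. Control replicates 1 and 2 were far above the cKO libraries and control replicate 3 was below all 3 of them. The log2 fold change, cKO over control, stood at -2.26 ± 1.25 (n = 3 per group, ± SE; 95% interval -5.36 to 0.83; limma adjusted p = 0.505). Without control replicate 3 it was -3.70 with a limma adjusted p of 0.00167. Without control replicate 1 it was -1.35 (limma adjusted p = 0.604). With control replicate 3 as the lone control, assumed to vary like the cKO libraries, it was 0.61 (limma adjusted p = 0.457). Stretches of up to 941 bases of Krt8 transcripts are at least 95% identical to those of Krt8-ps and Gm36026, so its reads there are uncertain.

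Krt18, the type I partner of KRT8, had 238.8, 139.4 and 102.8 normalised reads in cKO libraries, against 2654.3, 126.7 and 72.1 in control libraries. Control replicate 1 held 79.6% of the sum over the 6 libraries, and control replicates 2 and 3 lay within or below the cKO range. The log2 fold change was -0.94 ± 1.40 (n = 3 per group, ± SE, limma adjusted p = 0.83) and turned to 0.65 without control replicate 1. Hepatocytes are known to contain KRT8 and KRT18 as their keratins, and control replicate 1 is the library with 146402.5 normalised reads of Alb, the albumin gene. Of the 24 tested members, 14 were highest in control replicate 1, where 21.3% of all genes tested were. The part of liver transcripts in the Krt18 values was not tested. Per kilobase of gene length, Krt18 exceeded Krt8 by 2.29, 2.01 and 1.49 times in cKO replicates 1 to 3 and by 1.96 and 1.40 times in control replicates 1 and 3. In control replicate 2, the library with the intestinal transcripts, the same ratio was 0.158, so the partners did not keep one ratio across libraries.

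Krt8 and Krt18 lie next to each other on chromosome 15 on opposite strands, at 101996698 to 102004482 and at 102028180 to 102032027 (GRCm38). TCF21 belongs to the basic helix-loop-helix class, whose members bind E-boxes (CANNTG). The windows from 250 bases before to 50 bases after the annotated start are shown for this neighbouring pair, for the marker Spint2 and for Cldn19, which stood on the opposite side, as RefSeq gives them on GRCm38.p6, with E-boxes in capitals. They cover chr15:102004293-102004592 (minus strand), chr15:102027966-102028265 (plus), chr7:29281928-29282227 (minus) and chr4:119255191-119255490 (plus).
Krt8: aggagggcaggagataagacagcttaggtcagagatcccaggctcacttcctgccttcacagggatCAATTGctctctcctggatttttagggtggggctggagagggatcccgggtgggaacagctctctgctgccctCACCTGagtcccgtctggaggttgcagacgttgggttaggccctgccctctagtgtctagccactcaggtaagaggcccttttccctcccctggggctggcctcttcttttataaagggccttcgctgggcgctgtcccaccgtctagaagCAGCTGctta
Krt18: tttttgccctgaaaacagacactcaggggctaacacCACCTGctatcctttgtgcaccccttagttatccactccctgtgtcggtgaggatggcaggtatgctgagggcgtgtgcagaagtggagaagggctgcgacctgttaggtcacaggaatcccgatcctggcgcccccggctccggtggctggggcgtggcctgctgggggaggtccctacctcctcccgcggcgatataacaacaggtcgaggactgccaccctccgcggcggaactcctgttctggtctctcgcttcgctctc
Spint2: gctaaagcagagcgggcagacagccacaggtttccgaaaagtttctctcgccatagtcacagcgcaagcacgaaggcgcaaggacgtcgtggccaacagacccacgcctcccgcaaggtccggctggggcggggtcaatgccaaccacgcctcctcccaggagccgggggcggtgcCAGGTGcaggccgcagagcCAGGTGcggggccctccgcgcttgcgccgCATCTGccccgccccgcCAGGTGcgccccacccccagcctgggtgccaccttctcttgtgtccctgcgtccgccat
Cldn19: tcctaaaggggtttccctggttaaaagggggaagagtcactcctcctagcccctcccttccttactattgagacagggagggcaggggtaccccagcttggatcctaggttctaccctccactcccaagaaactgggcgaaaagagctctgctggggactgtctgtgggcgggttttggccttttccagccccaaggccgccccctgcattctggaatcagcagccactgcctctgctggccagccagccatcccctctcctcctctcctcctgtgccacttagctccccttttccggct
On either strand, the window of Krt8 held 3 E-boxes, of which 1 was CAGCTG, that of Krt18 held 1, that of Spint2 held 4 and that of Cldn19 held 0. An E-box was found in 72.1% of 27025 promoters of this length and in 29 of the 42 members with a window, and CAGCTG, which is itself an E-box, in 16.1% and in 9 of 42. The letters AACNGGTT, the form bound by GRHL factors, were in 2.01% of all promoters and in 0 of the 42. The GC box GGGCGG was found in 35.9% of all promoters and in 15 of 42, and in these windows 3 times for Spint2 and 2 times for Cldn19. A match describes the letters in the window and is not a measured binding site.

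Krt19, a short type I keratin without the usual tail domain, was lower in all 3 cKO libraries than in any control (ENSMUSG00000020911, chromosome 11, 100140810 to 100148665, minus strand). It had 211.9, 100.4 and 140.3 normalised reads in cKO libraries, against 587.7, 630.0 and 218.0 in control libraries. The cKO value of replicate 1 and the control value of replicate 3 nearly met. The means were 151 ± 56.5 in cKO and 479 ± 227 in control (SD, n = 3 each), 3.17-fold lower, and the log2 fold change of -1.58 ± 0.44 (SE) had an interval from -2.60 to -0.56, at a limma adjusted p of 0.17. Without control replicate 3 it was -2.07 with a limma adjusted p of 0.0188, and over the 6 fits with 1 library left out the adjusted p was otherwise 0.197 to 0.505. Krt7, a type II keratin of ducts and glands, had 197.0, 94.6 and 67.4 in cKO libraries and 697.4, 76.4 and 90.7 in control libraries, so that 1 control stood apart and the other two lay within the cKO range. Its log2 fold change was -0.65 ± 0.89 with all libraries and 0.37 without control replicate 1, with limma adjusted p values of 0.816 and 0.722.

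Krt20 and Krt23 did not pass the filter. Krt20, known as a keratin of the intestinal lining, had 8.4, 3.9 and 8.8 normalised reads in cKO libraries, against 2.4, 240.0 and 0 in control libraries. The high library was control replicate 2, which held 91.1% of the sum and is the library with reads for all 19 intestinal genes. The part of intestinal transcripts in the Krt20 values was not tested. Krt23 had at most 3.3 in a cKO and 7.3 in a control library.

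Of the 13 basal and suprabasal keratins of stratified epithelia, only Krt10 and Krt80 passed the filter, and Krt17 and Krt4 were high in 1 control library each. Krt17, a type I keratin of basal cells and skin appendages, had no read in any cKO library and 1.2, 233.7 and 22.2 normalised reads in control libraries. With each cKO library set at its floor of 3 reads, Krt17 was at least 28.5-fold lower in the cKO mean, and at least 3.9-fold lower without control replicate 2. Krt5 had 0, 4.9 and 0 in cKO and 4.9, 20.7 and 16.0 in control libraries, and its partner Krt14 had 24.2, 6.8 and 9.9 against 21.95, 9.0 and 6.2. Krt17 in control replicate 1 was a single read, under the floor of the cKO libraries, and Krt14 overlapped between the groups. Trp63, the master factor of basal cells, had 196.1, 221.4 and 327.1 in cKO and 135.3, 151.0 and 191.3 in control libraries (log2 fold change 0.62, limma adjusted p = 0.353). Krt4, known from the stratified lining of mouth and oesophagus, had 159.7 in control replicate 1, no read in the other two controls, and at most 2.9 in a cKO library. Krt15 and Krt16 had 5 and 4 reads in all 6 libraries together.

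Krt10 and Krt80 were the tested keratins of suprabasal layers. Krt10 had 111.5, 72.2 and 65.2 normalised reads in cKO libraries and 104.9, 80.9 and 60.5 in control libraries, with a log2 fold change of 0.01 and an interval from -0.80 to 0.82. Krt80, a type II keratin that appears late in epithelial differentiation, lay on the higher side in the cKO uteri (chromosome 15, 101347444 to 101370162). It had 95.7, 148.2 and 101.7 in cKO libraries, against 52.43, 55.72 and 32.03 in control libraries, and the groups did not overlap. The log2 fold change was 1.30 ± 0.37 (n = 3 per group, ± SE), with an interval from 0.47 to 2.12, a limma adjusted p of 0.16, and a DESeq2 adjusted p of 0.0349. Exons on the opposite strand cover 4.1% of Krt80, and no source used here says whether strand was used in counting. Among the untested suprabasal keratins, Krt9, Krt13, Krt78, Krt79 and Krt1 had 5 to 13 reads over the 6 libraries.

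The 8 hair keratins (Krt25, Krt27, Krt28, Krt36, Krt75, Krt83, Krt84 and Krt86) summed to 25.1, 0 and 17.7 normalised reads in cKO libraries and 14.6, 18 and 2.7 in control libraries. None of them passed the filter, and no group stood apart. Krt83, Krt86 and Krt87 share stretches of up to 1383, 1397 and 981 bases with Krt81 or each other, so reads could be split among them. Krt222, a divergent keratin, had 23.2, 30.2 and 15.5 in cKO libraries and 1.2, 20.7 and 33.8 in control libraries, with a log2 fold change of 0.97 ± 1.00 (limma adjusted p = 0.737). Krt87 and Krt90 had 34 and 18 reads over the 6 libraries.

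**Figure D2:**
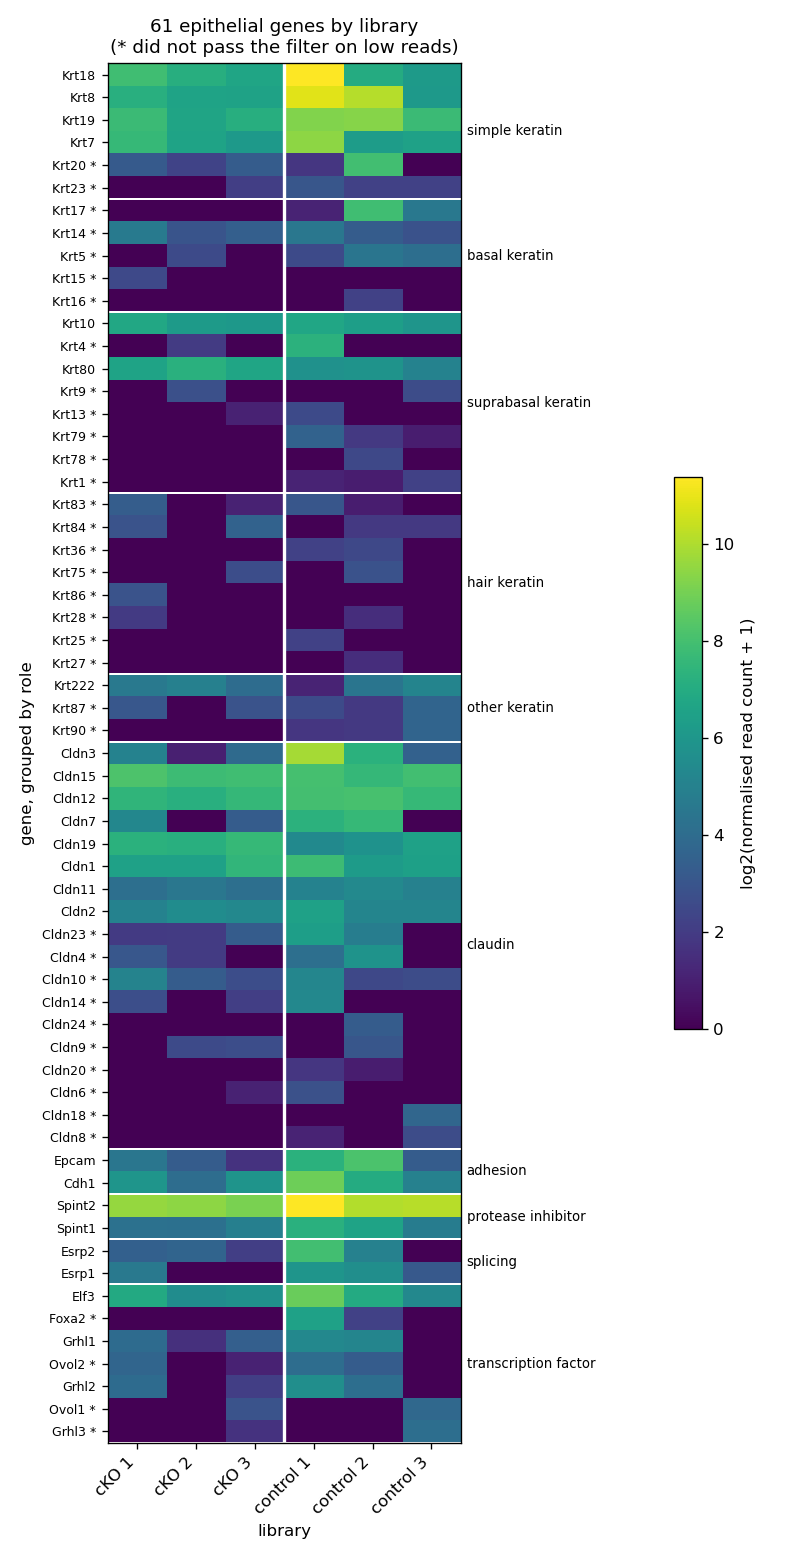
Level of each of the 61 genes, as log2(normalised read count + 1) in colour, in the 3 cKO (left) and 3 control (right) libraries, grouped by role, with an asterisk for the 37 genes that did not pass the filter. Krt8, Epcam and Cldn3 are brightest in control replicates 1 and 2, Krt18 and Krt7 are brightest in control replicate 1, and most stratified and hair keratins are near 0 in every library.

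Among claudins, Cldn3, Cldn7, Cldn4 and Cldn23 varied widely between controls, and Cldn15 and Cldn12 little. Cldn3, a sealing claudin of simple epithelia, had 31.6, 1.0 and 14.4 normalised reads in cKO libraries, against 919.3, 151.0 and 10.7 in control libraries. Control replicate 1 held 81.5% of the sum, and control replicate 3 lay inside the cKO range. The cKO mean was 23.0-fold lower, and 5.17-fold lower without control replicate 1, with a log2 fold change of -3.56 ± 1.80, at a limma adjusted p of 0.463. Cldn7, a claudin of the same kind that also sits along the sides of cells, had 37.2, 0 and 8.8 in cKO and 157.3, 195.0 and 0 in control libraries, and Cldn4, the neighbour of Cldn3 on chromosome 5, had 7.4, 2.9 and 0 in cKO and 17.1, 56.6 and 0 in control libraries. Both had no read in control replicate 3, where a count of 0 allows up to 2.67 normalised reads. Cldn23 also had no read there, with 2.8, 2.9 and 8.8 in cKO and 81.7, 27.0 and 0 in control libraries.

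Cldn15 and Cldn12 stayed close from library to library. Cldn15, which forms cation channels, had 293.6, 223.3 and 233.1 normalised reads in cKO and 258.5, 186.9 and 243.8 in control libraries, with a log2 fold change of 0.12 and an interval from -0.38 to 0.63. Cldn12 had 171.9, 145.3 and 192.3 in cKO and 249.9, 266.9 and 194.8 in control libraries. The Cldn12 groups did not overlap, by a narrow margin, with a log2 fold change of -0.48 ± 0.23, at a limma adjusted p of 0.415. Cldn1, the main claudin of the skin barrier, spanned 88.7 to 176.8 in cKO and 74.6 to 219.5 in control libraries, and the channel-forming Cldn2 spanned 31.6 to 45.8 and 35.1 to 90.2. Cldn11, a claudin of myelin in the brain and of the testis, was at 16.6 to 21.5 in cKO and 31.1 to 39.5 in control libraries, without overlap and with a limma adjusted p of 0.473.

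Cldn19, known from the myelin of peripheral nerves and from the kidney, was higher in every cKO library than in any control (chromosome 4, 119255414 to 119262438). It had 154.2, 143.3 and 194.5 normalised reads in cKO libraries, against 41.5, 54.8 and 90.7 in control libraries, and the groups did not overlap. The means were 164 ± 26.9 and 62.3 ± 25.5 (SD, n = 3 each), with a log2 fold change of 1.44 ± 0.35 (SE), an interval from 0.65 to 2.24, at a limma adjusted p of 0.106. Leaving out control replicate 3 gave 1.75 (limma adjusted p = 0.0407), and DESeq2 gave an adjusted p of 0.0122. Cldn19 missed the threshold in the other 5 fits that left out a library (0.109 to 0.436). Of 9 genes of Schwann cells and myelin, a list that contains Cldn19, limma called 3 higher and 0 lower, where 0.276% and 0.889% of all genes tested were. All 9 had a log2 fold change above 0, with a median of 1.10. Mbp and Prx, which encode myelin proteins, had log2 fold changes of 1.15 and 1.10 (limma adjusted p = 0.0412 and 0.0379). Without cKO replicate 3, neither passed (limma adjusted p = 0.224 and 0.227). Both also lost the call without cKO replicate 1, control replicate 2 or control replicate 3, and Prx without cKO replicate 2. The part that myelin transcripts have in the Cldn19 values was not tested.

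The other claudins held few reads. Cldn10 had 32.5, 8.8 and 5.5 normalised reads in cKO and 36.6, 4.5 and 5.3 in control libraries. Cldn14, known from the inner ear, reached 39.0 in control replicate 1, with no read in the other two controls and at most 5.6 in a cKO library. Cldn18, a claudin of stomach and lung, had 12.5 in control replicate 3 and no read elsewhere. Cldn6, Cldn8, Cldn9, Cldn20 and Cldn24 had 3 to 18 reads over the 6 libraries.

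Both adhesion genes were low in control replicate 3 as well as in the cKO libraries. Epcam had 21.4, 8.8 and 2.2 normalised reads in cKO libraries, against 154.8, 284.0 and 8.9 in control libraries. Control replicate 3 lay inside the cKO range, while control replicates 1 and 2 lay far above every cKO library. The highest, control replicate 2, held 59.2% of the sum and is the library with reads for all 19 intestinal genes. The part of intestinal transcripts in the Epcam values was not tested. The cKO mean was 13.8-fold lower, with a log2 fold change of -3.10 ± 1.31 (n = 3 per group, ± SE), an interval from -6.15 to -0.05, at a limma adjusted p of 0.358. Without control replicate 3 it was -4.57 with a limma adjusted p of 0.0352, and without control replicate 2 it was -2.14 (limma adjusted p = 0.525), 7.59-fold lower in the cKO mean. Cdh1 had 59.5, 15.6 and 57.5 in cKO and 464.5, 124.9 and 31.1 in control libraries, and was 4.68-fold lower in the cKO mean and 1.77-fold lower without control replicate 1 (limma adjusted p = 0.523 with all libraries). Per kilobase, Epcam ranked above 13.9, 6.81 and 1.75% of 14234 tested protein-coding genes in cKO libraries, and above 50.8, 67.8 and 5.84% in control libraries. Cdh1 ranked above 16.5, 5.57 and 16.8% of them in cKO libraries, and above 58.8, 25.9 and 8.93% in control libraries. Both genes ranked low in the 3 cKO libraries and in control replicate 3.

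Of the protease inhibitors, Spint2 was lower in every cKO library than in any control (ENSMUSG00000074227, chromosome 7, 29256323 to 29281912, minus strand). Spint2, the gene of hepatocyte growth factor activator inhibitor 2, had 757.3, 687.5 and 544.7 normalised reads in cKO libraries, against 2586.0, 1079.4 and 1139.6 in control libraries. The groups did not overlap, and control replicate 3, which lay with the cKO libraries for most epithelial genes, lay with the other controls here. The means were 663 ± 108 and 1602 ± 853 (SD, n = 3 each), 2.42-fold lower, with a log2 fold change of -1.16 ± 0.33 (SE), an interval from -1.92 to -0.41, at a limma adjusted p of 0.171. It was 1.67-fold lower without control replicate 1. Spint1 had 17.7, 17.6 and 28.7 in cKO and 146.3, 96.2 and 26.7 in control libraries, with a log2 fold change of -1.76 ± 0.63, at a limma adjusted p of 0.259 (-2.46 and 0.0424 without control replicate 3). The target of both, the membrane protease gene St14, had 51.1, 46.8 and 28.7 in cKO and 240.2, 127.6 and 21.4 in control libraries (log2 fold change -1.08, limma adjusted p = 0.622). Per kilobase, Spint2 exceeded Epcam by 15.9 and 35.1 times in cKO replicates 1 and 2 and by 7.48, 1.70 and 57.4 times in control libraries. Epcam had 2 reads in cKO replicate 3, too few for a ratio.

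The epithelial splicing factor genes were low in all cKO libraries and in control replicate 3. Esrp1 had 23.2, 0 and 0 normalised reads in cKO and 60.96, 47.63 and 8.01 in control libraries, with a log2 fold change of -3.38 ± 1.38 (n = 3 per group, ± SE), at a limma adjusted p of 0.324. With 0 reads in 2 cKO libraries the Esrp1 estimate moved with the method, to -4.02 with a pseudocount of 0.5, -2.0 with 5, -2.28 in edgeR, -2.32 in DESeq2 and -4.91 without cKO replicate 1. Esrp2 had 10.2, 11.7 and 3.3 in cKO and 240.2, 30.6 and 0 in control libraries, and its log2 fold change of -1.21 turned to 0.60 without control replicate 1 (limma adjusted p = 0.83 and 0.886). Exons on the opposite strand cover 7.8% of Esrp2.

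Foxa2, the factor of uterine glands that is also active in liver and gut, had no read in any cKO library and 89.0, 3.6 and 0 normalised reads in control libraries. Its reads came nearly all from control replicate 1, the library with 325748.1 normalised reads of liver genes, which held 96.1% of the sum. The part of liver transcripts in the values of Foxa2 was not tested. With the cKO libraries at their floors it was at least 10.3-fold lower in the cKO mean, and without control replicate 1 the remaining control mean was under the floor, so no fold is given. Elf3, an ETS factor of epithelia, had 118.0, 44.9 and 51.9 in cKO and 432.8, 121.3 and 38.3 in control libraries, with a log2 fold change of -0.95 ± 0.84 (limma adjusted p = 0.69). Grhl2, a grainyhead-like factor that maintains epithelial junctions, had 14.9, 0 and 3.3 in cKO and 47.6, 16.2 and 0 in control libraries, and Grhl1 had 14.9, 2.0 and 9.9 against 39.0, 35.1 and 0. For both genes, control replicate 3 had no read while the other two controls lay above all cKO libraries. Grhl3 and Ovol1, by contrast, were highest in control replicate 3, at 16.0 and 13.3, with at most 2.2 and 6.6 in a cKO library and no read in the other two controls. Ovol2 had 12.1, 0 and 1.1 in cKO and 15.9, 9.0 and 0 in control libraries, and exons on the opposite strand cover 17.0% of it and 22% of Ovol1.

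**Figure D3:**
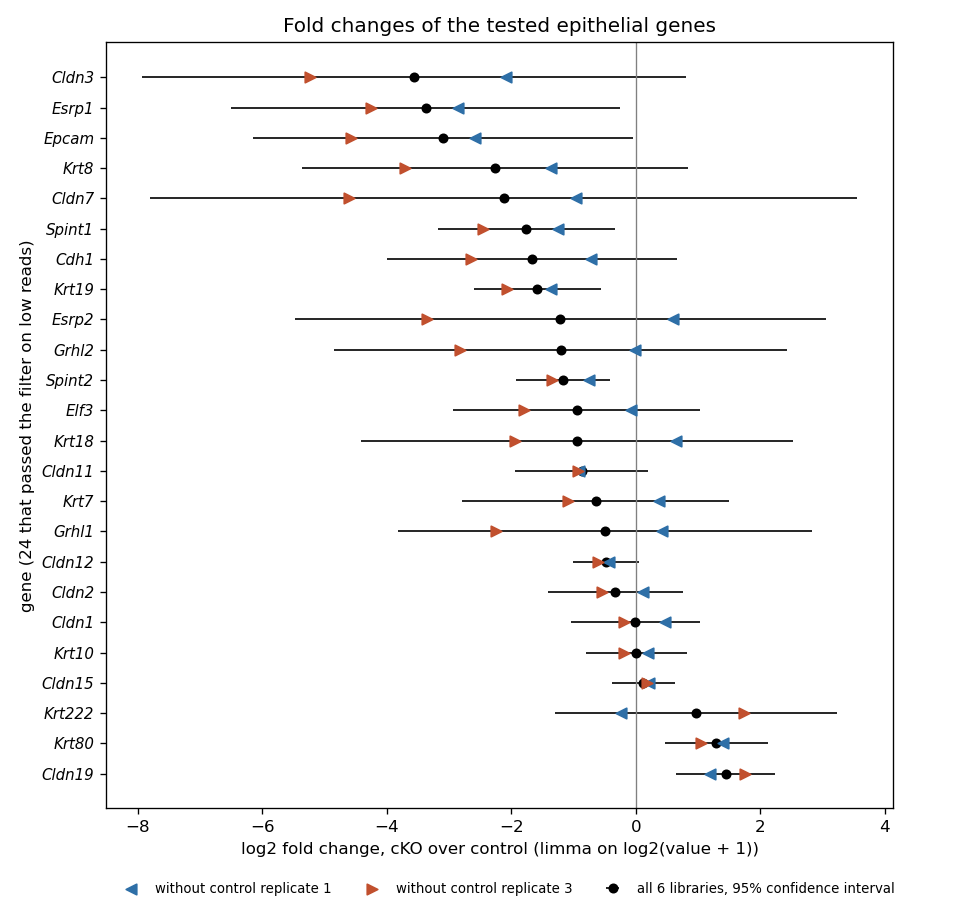
Log2 fold changes, cKO over control, of the 24 tested genes (limma on log2 of the value plus 1) with 95% confidence intervals over all 6 libraries, and the estimates without control replicate 1 (left-pointing) and without control replicate 3 (right-pointing). Without control replicate 3 the estimates of Krt8, Epcam and Cldn3 move further below 0, and without control replicate 1 those of Krt18, Krt7, Esrp2, Grhl1, Cldn1, Cldn2 and Krt222 cross 0, while Cldn19 and Krt80 stay above it.

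Set against the cKO libraries, the 3 controls did not behave alike. Control replicate 1 lay above all 3 cKO libraries for 19 of the 24 tested members, where 33.8% of all genes tested did, and control replicate 2 for 15, where 33.5% did. They lay below all 3 for 3 and 4 members, where 31.7% and 32.1% of all genes tested did. Control replicate 3 lay above them for 5 (Krt19, Spint2, Cldn12, Cldn11 and Krt222), where 32.4% of all genes tested did, inside the cKO range for 10, where 34.7% did, and below all 3 for 9, where 32.9% did. It was the lowest control for 17 of the 24, where it was the lowest for 32.9% of all genes tested. The highest control was a median of 7.95 times the lowest over the 24 members and 1.6 times over all genes tested (values plus 1), while the highest cKO library was 2.04 and 1.37 times the lowest. All 3 cKO libraries lay below all 3 controls for 4 of the 24 (Krt19, Spint2, Cldn12 and Cldn11), where 10.5% of all genes tested did, and above them for 2 (Cldn19 and Krt80), where 9.04% did.

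Of the 37 members that were not tested, 29 had at most 50 reads over the 6 libraries together. Of all 61 members, 14 had no read in any cKO library and 2 had no read in any control library. Of the 14, Krt17 had 286 reads over the 6 libraries and Foxa2 77, and the rest had 2 to 18. The 2 were Krt15 and Krt86, with 5 and 7 reads. The share of such genes over the whole series was not measured. There was no read for 24, 31 and 22 of the 61 members in cKO replicates 1 to 3, and for 14, 12 and 26 in control replicates 1 to 3.

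**Figure D4:**
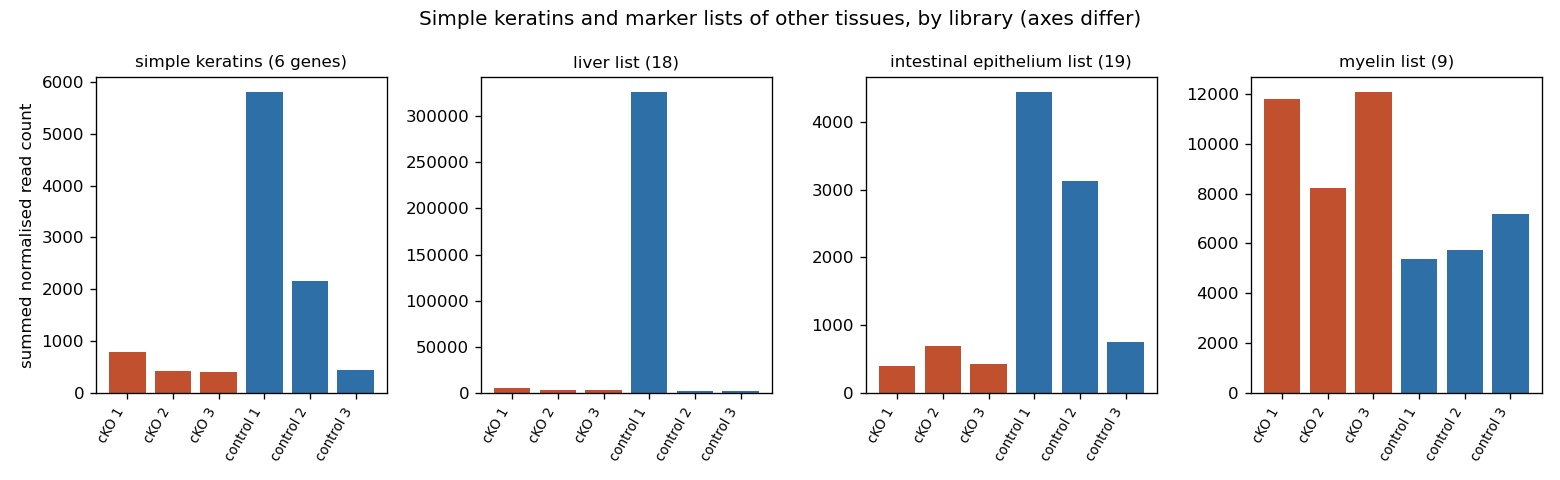
Summed normalised read counts in the 3 cKO (left) and 3 control (right) libraries of the 6 simple keratins and of lists of liver, intestinal epithelium and myelin genes, with a separate axis from 0 for each. Control replicate 1 holds the most simple keratin reads, at 5798.8, and nearly all liver reads, the intestinal list is high in control replicates 1 and 2, and the myelin list is higher in each cKO library than in any control.

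The 6 simple keratins summed to 798.2, 433.0 and 416.6 normalised reads in cKO libraries and 5798.8, 2166.8 and 454.6 in control libraries, as plotted beside the marker lists. The intestinal epithelium list stood at 406.1, 695.3 and 435.3 in cKO and 4434.4, 3125.8 and 757.1 in control libraries. In control replicate 1, 3383.4 of that sum came from Fabp1, which liver also makes. Epidermal keratinocyte genes, 14 of them, summed to 1078.8 to 1422.0 in cKO and 974.2 to 1491.0 in control libraries. Mesothelium genes, which mark the lining of the body cavity where simple keratins are also made, summed to 11309.5 to 13929.7 in cKO and 9162.5 to 25430.1 in control libraries, highest in control replicate 1. Most of that sum was C3, a complement gene that liver and uterine epithelium also express, at 9860.5 to 12487.6 in cKO and 7418.1 to 22513.6 in control libraries. The urothelium list of 6 genes summed to 345.7 to 393.4 in cKO and 248.9 to 318.2 in control libraries. Limma called 0 of the 4 intestinal, 7 keratinocyte, 10 mesothelium and 4 urothelium genes tested, with 1 intestinal gene lower and Trp63, which both the keratinocyte and the urothelium list hold, higher at an unadjusted p under 0.05.

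Among other junction genes, limma called Perp alone. Of 15 tested genes of desmosomes and adherens junctions, 1 fell and 0 rose in the limma fit. Over all genes tested, 0.889% fell and 0.276% rose. At an unadjusted limma p under 0.05, 8 of the 15 were on the lower side, where 7.6% of all genes tested were. The median log2 fold change of the 15 was -0.86. The gene that fell was Perp, a desmosome membrane protein, with 53.9, 55.6 and 67.4 normalised reads in cKO and 290.2, 292.1 and 170.8 in control libraries, a log2 fold change of -2.04 ± 0.31 (n = 3 per group, ± SE), at a limma adjusted p of 0.0183. Its groups did not overlap, but it passed in no fit that left out a cKO library (limma adjusted p = 0.0753, 0.0995 and 0.0845 without replicates 1, 2 and 3) nor without control replicate 2 (0.0529). Dsc2, a desmosomal cadherin, had 0, 4.9 and 1.1 in cKO and 179.2, 69.2 and 9.8 in control libraries (limma adjusted p = 0.124, and 0.0343 without control replicate 3), and Cdh3, the placental cadherin gene, a log2 fold change of -1.39 ± 0.50. Of 16 tested tight junction and polarity genes outside the claudins, limma called 0 in either direction. At an unadjusted limma p under 0.05, 6 of the 16 were on the lower side, where 7.6% of all genes tested were. Cgnl1 and Tjp1, which link tight junctions to the cytoskeleton, had log2 fold changes of -0.47 and -0.36 (limma adjusted p = 0.279 and 0.322).

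Other epithelial genes did not pass either. Of 11 tested genes of simple epithelia, limma called 0, at a median log2 fold change of -0.61. At an unadjusted limma p under 0.05, 3 of the 11 were lower and 1 higher, against 7.6% and 6.11% of all genes tested. Erbb3, a growth factor receptor, had a log2 fold change of -0.81 ± 0.23, Mal2, an apical transport protein, one of -3.06 ± 0.88, and Klf5, a factor of proliferating epithelium, one of 0.69 ± 0.22. Of 19 tested genes known from uterine lining and glands, limma called 0. At an unadjusted limma p under 0.05, 3 were lower and 1 higher, against 7.6% and 6.11% of all genes tested. For 17 of the 19, control replicate 3 lay inside or below the cKO range. Over all genes tested, it lay inside for 34.7% and below for 32.9%. The 31 genes of that list summed to 18816.4, 18657.1 and 17844.4 normalised reads in cKO and 37232.5, 13080.1 and 12013.8 in control libraries. Most of each sum was C3. Ltf, of the same list, had 353.1, 17.6 and 75.1 in cKO and 2544.6, 56.6 and 114.8 in control libraries. Aqp8, a water channel, had 6.5, 22.4 and 21.0 normalised reads in cKO and 602.3, 264.2 and 23.1 in control libraries, and Slc18a2, an amine transporter, 34.4, 19.5 and 24.3 in cKO and 42.7, 93.5 and 228.6 in control libraries. Control replicate 3 was the lowest control for Aqp8 and the highest for Slc18a2. It is also the library with 6247.1 normalised reads of the neuron list. The part of neuron transcripts in the Slc18a2 values was not tested. Aqp8 passed without control replicate 3 (limma adjusted p = 0.0103) and Slc18a2 without control replicate 1 (0.0432). Ovgp1, the oviduct glycoprotein gene, had 124.5, 265.2 and 217.7 in cKO and 89.0, 110.5 and 120.1 in control libraries (limma adjusted p = 0.283). Wnt7a, the ligand that uterine epithelium is known to make, had 1.9, 0 and 0 in cKO and 75.6, 0 and 0 in control libraries.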

How the data were processed

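Total RNA of each uterus was extracted with Trizol and made into 1 library per animal, 3 cKO and 3 control, with both groups handled at the same time, per the labels. The submitters' processing notes name HISAT2, SAMtools and featureCounts without versions, and GRCm39. Of 25988 genes found in GENCODE vM21 (GRCm38), 25239 had identical start and end in the deposited table, so coordinates are given as GRCm38. The deposited values are a signal: read counts per gene scaled by the authors with 1 size factor for each library. Dividing by the smallest step of a column gave whole reads for 100% of values, within 0.01 reads. The authors also deposited log2 fold changes, p-values and adjusted p-values, made with a tool not given in the sources used here.

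The main test was limma 3.58.1 (R 4.3.3) on log2(value + 1), with trend and robust fitting, after edgeR's filterByExpr on the reads, with p-values adjusted by Benjamini-Hochberg over 16314 genes. The design foresaw edgeR for counts and limma for normalised values. edgeR 4.0.16 on the recovered reads called 13 genes higher and 109 lower, and limma 45 and 145. DESeq2 1.42.0 was also run. Errors are the standard error of the fit or the standard deviation over animals. Floors of 3 reads cover counting error only, since such reads are not independent molecules. The test was also run on simulated reads. Named are both markers, members with an unadjusted p under 0.05, up to 4 members per role with the highest level per kilobase, members with over 50% of their sum in 1 library, and up to 3 genes of a list (some that the rule selects are not reported here); Cldn1, Cldn2, Cldn10, Cldn11, St14, Wnt7a and remaining members were added after their values were seen. Near-identical transcripts were sought with blastn 2.17.0 (at least 95% over 100 bases). Promoter windows come from RefSeq. Lists of smooth muscle, skeletal muscle, endothelial (9 genes tested, 0 called) and leukocyte genes (8 tested, 0 called) were also measured. Members and lists were chosen with earlier results of these data known.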

Additional observations from a re-analysis of the deposited data

How the results depend on the processing

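The counts of 0 members called held with edgeR, TMM scaling, pseudocounts of 0.5 and 5, no filter, a minimum mean of 1 CPM and the replicate block. DESeq2 called 4 lower and 2 higher. Leaving out 1 library gave 0 to 4 lower and 0 to 1 higher. With 1 control kept, an alternative chosen after seeing the data, control replicate 1 gave 9 lower and 1 higher, control replicate 2 gave 3 and 1, and control replicate 3 gave 0 and 1, the lone control being assumed to vary like the cKO libraries. Over the 21 tested members that the naming rule selects, directions turned in 25 fits. Without control replicate 1 the log2 fold changes were 0.65 for Krt18, 0.37 for Krt7, 0.60 for Esrp2, 0.41 for Grhl1 and -0.24 for Krt222. Without control replicate 2 they were -0.016 for Cldn15 and 0.34 for Grhl1, without control replicate 3 -0.19 for Krt10, without cKO replicate 1 -0.22 for Krt10 and without cKO replicate 2 0.22 for Grhl1. With control replicate 1 as the only control they were -0.058 for Cldn15 and -0.37 for Krt10, and with control replicate 2 -0.0038 for Krt10, 0.25 for Krt18 and 0.49 for Krt7. With control replicate 3 as the only control they were 0.27 for Cdh1, 2.85 for Cldn7, 0.75 for Elf3, 3.09 for Esrp2, 3.00 for Grhl1, 2.03 for Grhl2, 1.06 for Krt18, -0.59 for Krt222, 0.25 for Krt7 and 0.61 for Krt8. Over the 6 fits with 1 library left out, log2 fold changes ran from -3.36 to 0.60 for Esrp2, -2.25 to 0.41 for Grhl1, -0.22 to 0.20 for Krt10, -1.94 to 0.65 for Krt18, -0.24 to 1.74 for Krt222 and -1.22 to 0.37 for Krt7. In 26 other fits a named gene gained a call and in 305 neither call nor direction changed. The cause was not tested. Libraries with the same number share only a number: their deviations from the group means correlated at 0.0084, -0.18 and 0.044, and 0 of 6 libraries correlated best with their own number. With the replicate block limma called 0 members lower and 0 higher, and 149 genes lower and 34 higher in all. Labels do not give litter or day, so p-values measure the spread between these animals. At the depths here a count of 0 allows up to 3.66 normalised reads in a control and 3.31 in a cKO library.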
